A study of Mus musculus with 4 samples.

Results

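The ends of chromosomes were followed here through 10 mouse genes in primary culture of spermatogonia (SSC culture): Tert, the 7 genes of the shelterin complex (Terf1, Terf2, Terf2ip, Pot1a, Pot1b, Acd and Tinf2), and Sun1 and Speedya, which attach telomeres to the nuclear envelope in meiosis. They were taken by name from a table of counts for 55421 genes. Of the 10 names, 9 were found as written. Speedya is not a name in the table, and the gene that encodes the Speedy A protein was read under its symbol, Spdya. The table holds 4 RNA-seq libraries, 2 per group, from SSC cultures of the CD1 background that were started from testes of pups aged 6 days and kept on feeders of mitotically arrested mouse embryonic fibroblasts. The Veh group stayed in complete SSC medium. The NRRA group was given nutrient restriction plus retinoic acid (RA) for 48 hours, that is, a medium of 10% complete medium and 90% balanced salt solution with 100 nM RA. The complete medium contains N2, bFGF and GDNF, so in the NRRA medium these were diluted along with the nutrients. The comparison asks how NRRA, which the study uses to start meiosis in vitro, changes transcript levels in this background. No library here had RA or nutrient restriction alone, so their parts in a difference cannot be told apart.

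Telomeres are protected by shelterin. TRF1 (gene Terf1) and TRF2 (gene Terf2) bind the double-stranded repeats, TIN2 (gene Tinf2) joins them, and TPP1 (gene Acd) links TIN2 to POT1, which binds the single-stranded overhang. Telomerase, whose catalytic subunit is TERT, adds repeats, and germline stem cells are among the adult cells that keep it active. In meiotic prophase telomeres leave this capped state in part. They are tied to the inner nuclear membrane by SUN1 and by Speedy A bound to CDK2, together with TERB1, TERB2 and MAJIN, and KASH5 joins SUN1 to dynein outside the nucleus, so that chromosomes can be moved to find their partners.

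The libraries held between 28022265 and 31604769 counts. Levels are given in CPM, counts scaled to library sizes adjusted by TMM, edgeR's correction for composition. Across genes, Pearson's r of log2 CPM was 0.993 for the Veh pair, 0.994 for the NRRA pair and 0.958 to 0.959 for pairs of a Veh with an NRRA library. Stra8, an RA target gene, was at 9.62 and 10.1 CPM in Veh and at 1864 and 1853 CPM in NRRA. Germ cell markers were present, with Ddx4 between 268 and 278 CPM in the 4 libraries. The 7 of 8 germ cell markers found in the table took 0.178% and 0.185% of the counts in Veh and 0.222% in both NRRA libraries. Markers of fibroblasts, the feeder cells, were present as well, and 10 of them took 0.873% and 0.86% of the counts in Veh and 0.722% and 0.706% in NRRA. The shares are of all counts, without TMM scaling, and Fn1 gave most of the fibroblast marker counts. Of the markers, 5 germ cell genes were higher and 1 lower, while 1 fibroblast gene, Col3a1, was higher and 8 lower. The part of this shift in the results below was not tested, and in bulk RNA fewer cells of a type and less RNA per cell cannot be told apart.

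Of the 10 genes, 7 were higher in NRRA, 1 was lower, and Terf2 and Pot1a did not pass the test (edgeR quasi-likelihood F test, with p adjusted by the method of Benjamini and Hochberg over 20232 genes and a threshold of 0.05). Calls are frequent in these libraries. Of all genes tested, 56.4% were called, with 27.9% higher and 28.4% lower, so the number of calls among the 10 says little by itself. In counts, 5654 genes were higher and 5752 lower, and with library size as the only scaling 6962 were higher and 4593 lower. Their median log2 fold change (NRRA over Veh) was 0.23, against 0.00029 for all genes, and their median absolute log2 fold change was 0.24, against 0.33. Most of these differences were therefore small. At least 2-fold differences were called for 1 of the 10, Spdya, and for 13.3% of all genes. The libraries of the groups did not overlap for 8 of the 10 and for 76.7% of all genes.

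**Figure D1:**
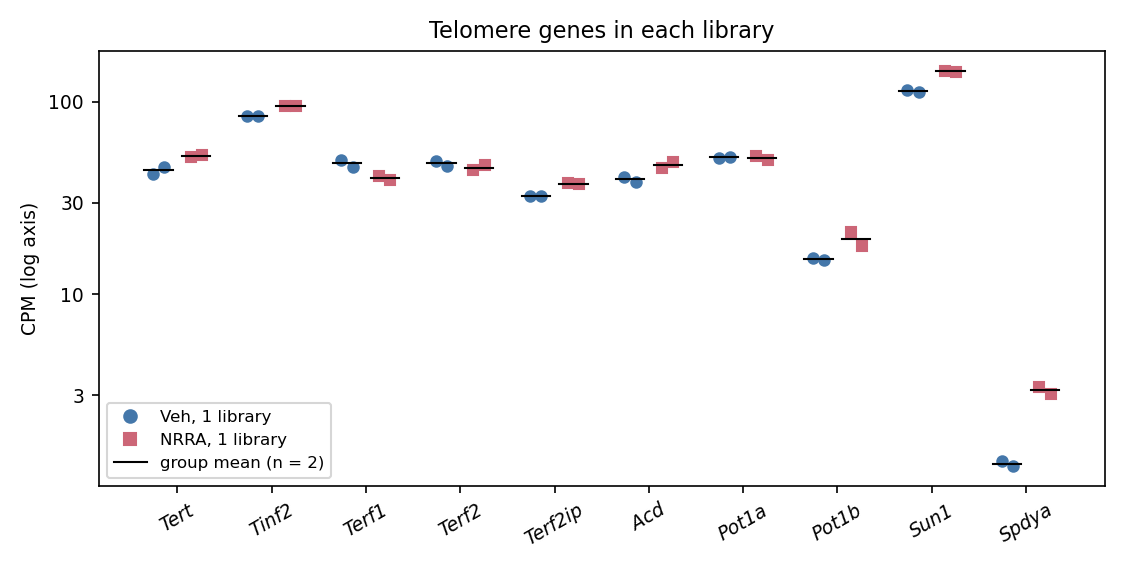
Level of each of the 10 genes in each library, in CPM on a log axis. Circles are Veh libraries, squares are NRRA libraries and black lines are group means (n = 2). Sun1 and Spdya stand clear of their Veh levels, while Terf2 and Pot1a overlap.

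Spdya and Sun1, the attachment genes, are shown first with the sequence around their starts, because they had the smallest adjusted p-values of the 10 and because both windows hold the letters CNCCTCAG, a motif associated with STRA8. The windows run from 250 bases before to 50 bases after the RefSeq start (GRCm38.p6), and are written 5′ to 3′ on the gene's strand, with the match in capitals. The Spdya window is chr17:71551811-71552110 (plus strand) and the Sun1 window is chr5:139200387-139200686 (plus strand).

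Spdya: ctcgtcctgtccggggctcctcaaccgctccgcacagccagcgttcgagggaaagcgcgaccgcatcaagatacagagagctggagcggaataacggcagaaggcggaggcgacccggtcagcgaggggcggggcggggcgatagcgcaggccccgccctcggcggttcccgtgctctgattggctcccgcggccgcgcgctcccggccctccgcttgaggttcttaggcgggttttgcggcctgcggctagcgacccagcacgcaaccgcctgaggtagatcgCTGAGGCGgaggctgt

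Sun1: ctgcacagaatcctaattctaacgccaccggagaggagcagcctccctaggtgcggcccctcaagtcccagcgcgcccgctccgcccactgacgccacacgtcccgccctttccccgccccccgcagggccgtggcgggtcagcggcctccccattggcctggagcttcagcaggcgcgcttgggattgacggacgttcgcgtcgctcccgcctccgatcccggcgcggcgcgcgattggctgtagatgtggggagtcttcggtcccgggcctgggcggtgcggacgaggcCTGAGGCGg

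Both matches read on the opposite strand and lie after the start, with the first base at position 35 in Spdya and 42 in Sun1, counted from 1 at the start. A second RefSeq start of Sun1 had no match. Promoter windows were found for 9 of the 10 genes, all but Terf1, and 2 of the 9 held the motif on either strand, against 9.12% of 27025 genes. A strict direct repeat for RA receptors, AGGTCA repeated after any 5 bases, was in 0 of the 9 and in 3 genes in all. In the attachment list below, CNCCTCAG was in 3 of 10 genes with a window, namely Cdk2, Dync1h1, which was not called, and Lmna, which fell, and it was not in Kash5 or Terb1, which rose. Of the other lists it was in 0 of 9 genes of telomerase assembly and in 1 of 11 of telomere replication and protection, Daxx, which was not called. The motifs were searched on both strands, and a match or its lack describes the letters of these windows, not binding.

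Spdya encodes Speedy A, an activator of CDK2 found at meiotic telomeres (ENSMUSG00000052525, GRCm38 chr17:71552061-71589533, plus strand). It drew 37 and 38 counts in Veh against 108 and 91 in NRRA, which is 1.36 and 1.28 CPM against 3.32 and 3.02 CPM. Both NRRA libraries lay well above both Veh libraries, at a low level. The log2 fold change was 1.26 (SE 0.23, 95% interval 0.79 to 1.74, edgeR adjusted p 3.74e-05). On the opposite strand 18.3% of the exonic bases of Spdya overlap Trmt61b, and 11.4% overlap the pseudogene Mettl4-ps1 on the same strand. Trmt61b was at 4.46 and 3.97 CPM in Veh and 3.84 and 4.32 CPM in NRRA, and Mettl4-ps1 lay between 0.184 and 0.504 CPM. The levels of these neighbours overlapped between the groups, and those of Spdya did not.

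Sun1 encodes the SUN domain protein that holds telomeres at the inner nuclear membrane (ENSMUSG00000036817, chr5:139200637-139249840, plus strand). Its 4 libraries held 116 and 112 CPM in Veh and 146 and 143 CPM in NRRA. The groups were far apart relative to the spread within them, 114 ± 2.66 against 144 ± 1.84 CPM (SD, n = 2 per group). The log2 fold change was 0.34 (SE 0.035, edgeR adjusted p 4.31e-09), which is 26.7% higher. This was the smallest adjusted p of the 10 genes.

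Tert, the catalytic subunit of telomerase (ENSMUSG00000021611, chr13:73626911-73649843, plus strand), was expressed in both conditions. It drew 1141 and 1372 counts in Veh against 1695 and 1602 in NRRA, which is 42.1 and 46.1 CPM against 52.0 and 53.2 CPM. The NRRA libraries were close to each other and above both Veh libraries. The rise was 19.2% (log2 fold change 0.25, SE 0.055, 95% interval 0.14 to 0.37, edgeR adjusted p 3.06e-04). No other annotated exon overlaps Tert.

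**Figure D2:**
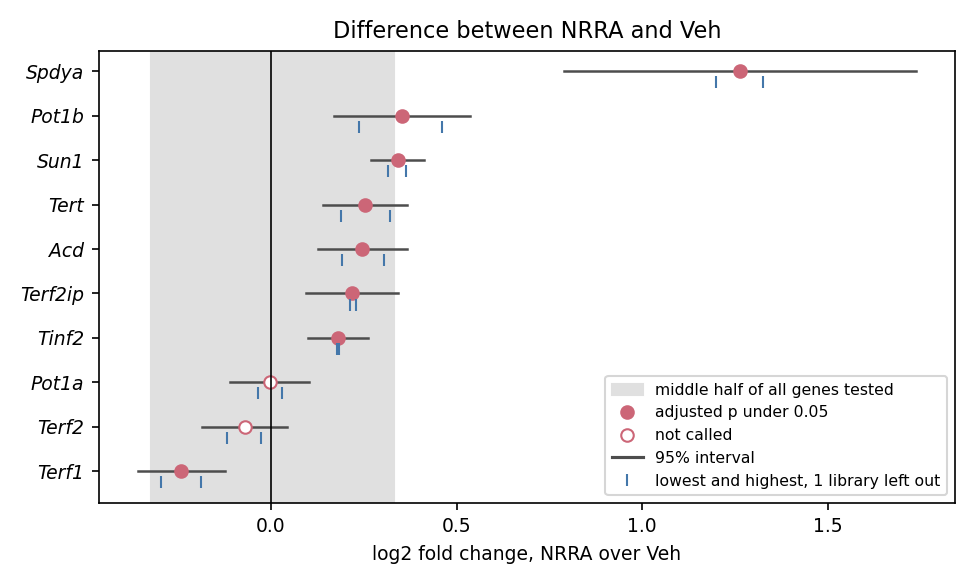
Log2 fold change of each gene, NRRA over Veh, with its 95% interval. Filled points passed the test, blue ticks mark the lowest and highest values with 1 library left out, and the grey band spans the quartiles of all genes tested (-0.32 to 0.33). Spdya is the only gene of the 10 whose whole interval lies outside that band.

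Within shelterin, 4 genes were higher, 1 was lower and 2 did not pass the test. Summed over the 7 genes, the transcript level was 323 and 315 CPM in Veh and 338 and 336 CPM in NRRA. Per kilobase of exonic bases the sum was 65.2 and 63.2 in Veh and 68.2 and 68.3 in NRRA. These sums were not tested.

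Tinf2 (ENSMUSG00000007589, chr14:55674689-55681820, minus strand), whose product TIN2 is the hub of the complex, was at 84.3 and 84.5 CPM in Veh and 95.7 and 95.5 CPM in NRRA. Its replicates nearly coincided, and the log2 fold change was 0.18 (SE 0.039, edgeR adjusted p 3.20e-04). Of the exonic bases of Tinf2, 31.2% overlap Gmpr2 on the opposite strand, and Gmpr2 moved the other way (log2 fold change -0.23, SE 0.063, edgeR adjusted p 0.00273). Acd (ENSMUSG00000038000, chr8:105695860-105701102, minus strand) encodes TPP1, the subunit that recruits telomerase, and was at 40.8 and 38.3 CPM in Veh and 45.2 and 48.7 CPM in NRRA. It rose by 18.6% (log2 fold change 0.25, SE 0.058, edgeR adjusted p 7.01e-04). Here 33.3% of the exonic bases overlap Carmil2 on the opposite strand, a gene at 6.35 to 8.08 CPM in the 4 libraries that did not pass the test (log2 fold change 0.23, edgeR adjusted p 0.127). Reads of such pairs can only be told apart where strand was used in counting, which is not given in the sources used here.

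Terf2ip (ENSMUSG00000033430, chr8:112011398-112020528, plus strand) encodes RAP1, the partner of TRF2 that limits recombination at telomeres. It was at 32.4 and 32.3 CPM in Veh and 38.0 and 37.4 CPM in NRRA (log2 fold change 0.22, SE 0.060, edgeR adjusted p 0.00289). Its partner Terf2 (ENSMUSG00000031921, chr8:107069400-107096547, minus strand), whose product keeps chromosome ends hidden from the ATM kinase, was at 49.4 and 46.4 CPM in Veh and 44.3 and 46.9 CPM in NRRA. These values overlapped, and the log2 fold change was -0.071 with an interval of -0.18 to 0.043 (SE 0.055, edgeR adjusted p 0.289). It ran from -0.12 to -0.026 when a library was left out, without a call.

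Terf1 (ENSMUSG00000025925, chr1:15805646-15844052, plus strand), whose product helps replication forks through the repeats, was the single gene of the 10 that fell. It was at 49.7 and 46.2 CPM in Veh and 41.5 and 39.5 CPM in NRRA. Both NRRA libraries were below both Veh libraries (log2 fold change -0.24, SE 0.057, 95% interval -0.36 to -0.13, edgeR adjusted p 6.85e-04). Of its longest transcript, 6.79% lies in short stretches that are near-identical in other genes. With library size as the only scaling, the fall was -0.15 and still passed the test (edgeR adjusted p 0.0241). The share of Terf1 in the summed counts of Terf1 and Terf2 does not depend on the scaling between libraries. It was 50.1% and 49.9% in Veh and 48.3% and 45.7% in NRRA, a difference of -2.98 percentage points. In an exact permutation test over the 4 libraries (two-sided) the p was 0.333, the smallest that 2 against 2 allows.

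Mice carry 2 genes for POT1, Pot1a and Pot1b, where humans have a single gene. POT1a is known mainly for repressing the damage response at telomeres and POT1b for controlling the length of the overhang. Pot1a (ENSMUSG00000029676, chr6:25743737-25809246, minus strand) was at 51.1 and 52.0 CPM in Veh and 52.6 and 50.2 CPM in NRRA. The groups overlapped, and its log2 fold change was -0.0035 with an interval of -0.11 to 0.10 (SE 0.051, edgeR adjusted p 0.962). Pot1b (ENSMUSG00000024174, chr17:55651951-55712628, minus strand) was at 15.4 and 15.2 CPM in Veh and 21 and 17.9 CPM in NRRA. Its log2 fold change was 0.35 (SE 0.089, 95% interval 0.17 to 0.54, edgeR adjusted p 0.00141). The NRRA libraries of Pot1b differed from each other by more than the Veh libraries did, and without NRRA replicate 1 the value was 0.24 and no longer passed the test (edgeR adjusted p 0.0813). The share of Pot1a in the summed counts of both genes was 76.9% and 77.4% in Veh and 71.5% and 73.7% in NRRA. The difference was -4.58 percentage points, and the exact permutation test (two-sided) again gave 0.333, its lower limit. The transcripts of the paralogs are 77.5% identical over their longest alignment of 2143 bases, and neither had a stretch of at least 100 bases with 95% identity to another gene.

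**Figure D3:**
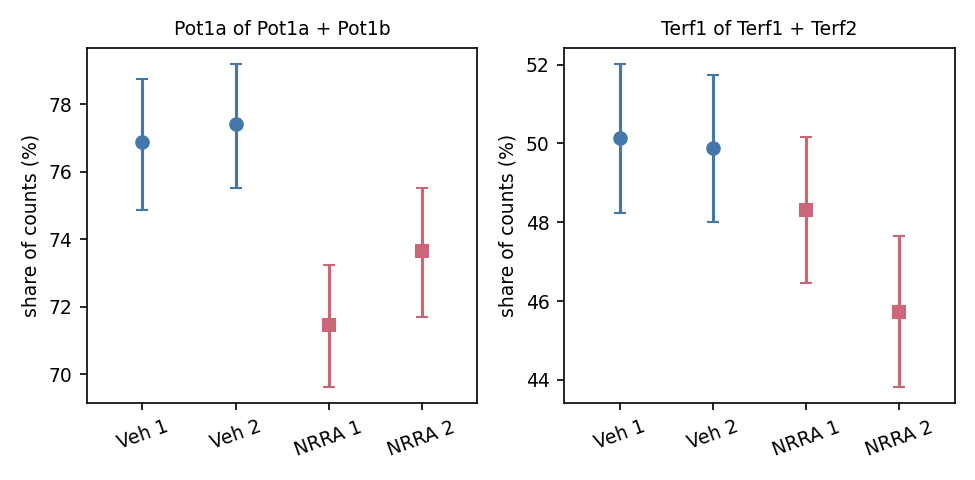
Share of Pot1a in the counts of Pot1a and Pot1b (left) and of Terf1 in the counts of Terf1 and Terf2 (right), in percent, in each library. Bars are 95% Wilson intervals, which cover counting error only, and the axes do not start at 0. Both shares were lower in both NRRA libraries than in both Veh libraries.

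Levels of different genes can only be set side by side per length, here in CPM per kilobase of all exonic bases of a gene. In Veh the order was Tinf2 (17.1), Sun1 (15), Acd (10.9), Terf2 (10.4), Terf1 (10.4), Tert (7.69), Terf2ip (6.53), Pot1a (5.94), Pot1b (2.90) and Spdya (0.601). Among these neighbours, Acd and Terf2, and Terf2 and Terf1, had overlapping libraries, while each other neighbouring pair was apart. In NRRA the order was the same except that Tert (9.18) stood above Terf1 (8.79). Tert thus lay within the range of the shelterin genes per length, between Terf1 and Terf2ip in Veh. The order depends on which length is used. Per kilobase of the longest protein-coding transcript, 5 of the 10 genes changed rank in Veh, by up to 3 places.

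**Figure D4:**
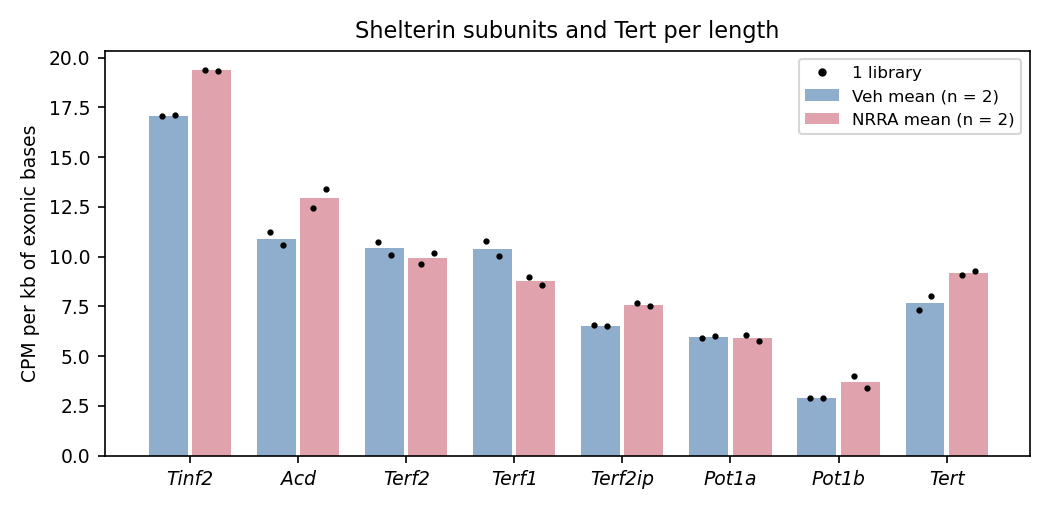
Levels of the shelterin genes and Tert per kilobase of exonic bases, in CPM per kb, from 0. Bars are group means (n = 2) and dots are libraries. Tinf2 is highest at 17.1 in Veh and 19.4 in NRRA, and Pot1b is lowest at 2.90 and 3.70.

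The partners of these genes were read in 3 lists, which were not tested against each other or against all genes, of which 27.9% were called higher and 28.4% lower. In a list of 13 genes for meiotic telomere attachment and movement, 7 were called higher and 2 lower. The median log2 fold change was 0.16. Its largest rises were those of the germline components. Kash5 (named Ccdc155 in the table) was at 5.12 and 4.03 CPM in Veh and 11.6 and 10.2 CPM in NRRA (log2 fold change 1.26, SE 0.14, edgeR adjusted p 1.30e-08). Majin, the membrane anchor, was at 1.55 and 1.61 CPM in Veh and 2.89 and 3.62 CPM in NRRA (log2 fold change 1.03, SE 0.22). Terb1, which binds TRF1, was at 4.83 and 4.77 CPM in Veh and 8.35 and 7.24 CPM in NRRA (log2 fold change 0.70, SE 0.14). Terb2, its partner, was at 5.31 and 4.91 CPM in Veh and 7.28 and 6.94 CPM in NRRA (log2 fold change 0.48, SE 0.14, edgeR adjusted p 0.00447), and it lost the call with DESeq2 (adjusted p 0.0766). So Terb1, Terb2, Majin, Kash5 and Spdya were all low in Veh and all rose. The summed share of germ cell markers, taken without TMM scaling, was also higher in both NRRA libraries, as given above. Its genes differed, with Sall4 higher (log2 fold change 0.84), Ddx4 not called (0.023) and Mael lower (-0.145). The part of this share was not tested.

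The widely expressed partners differed. Sun2 and Cdk2 were slightly higher (log2 fold changes 0.19 and 0.16), and Lmnb1, a lamin of most nuclei, was higher by 0.28. Cdk2 lost the call without Veh replicate 2 (0.12, edgeR adjusted p 0.0627) and without NRRA replicate 2 (0.11, edgeR adjusted p 0.118). The largest falls were those of Syne2 and Lmna. Syne2, a giant protein of the outer nuclear membrane, was at 212 and 208 CPM in Veh and 87.6 and 86.8 CPM in NRRA (log2 fold change -1.27, SE 0.034). Lmna, which encodes the A-type lamins that are abundant in fibroblasts, was at 198 and 199 CPM in Veh and 101 and 100.05 CPM in NRRA (log2 fold change -0.98, SE 0.033). Of the fibroblast markers, 8 were lower, among them Fn1 (log2 fold change -0.49) and Col1a1 (-0.097), while Col3a1 was higher (0.61). Their part was not tested. The third lowest value, that of Syne1, was -0.10 (edgeR adjusted p 0.156), and without NRRA replicate 2 it was -0.19 and passed the test (edgeR adjusted p 0.0301). Dynein and its regulators Dctn1 and Pafah1b1 were not called, with log2 fold changes between 0.0045 (Dync1h1) and 0.053 (Dctn1). With library size as the only scaling all 3 passed the test, at 0.094 for Dync1h1, 0.14 for Dctn1 and 0.11 for Pafah1b1, and Cdk2 was at 0.25. Dctn1 also passed without Veh replicate 1 (0.095, edgeR adjusted p 0.0128).

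Telomerase needs an RNA and a set of assembly factors. The list read here has 14 genes, of which Tep1 and Pinx1 encode telomerase-associated proteins rather than assembly factors. Of the 14, 2 were called higher and 9 lower, with Pinx1 (log2 fold change -0.39) among the lower. The median log2 fold change of the 13 tested was -0.33. Terc, the telomerase RNA, had 1 count in NRRA replicate 1 and 0 in the others, and was not tested. It has no poly(A) tail in its mature form, while these libraries were made by oligo-dT capture. The largest falls were those of Nhp2, Nop10 and Ruvbl1. Nhp2 was at 96.6 and 88.5 CPM in Veh and 52.2 and 55.0 CPM in NRRA (log2 fold change -0.79, SE 0.048, edgeR adjusted p 2.00e-13). Nop10 was at 52.7 and 54.3 CPM in Veh and 32.6 and 34.4 CPM in NRRA (log2 fold change -0.68, SE 0.056). Gar1 (-0.55) and dyskerin, gene Dkc1 (-0.33), were named after their values were seen. With these, the transcripts of all 4 proteins of the H/ACA core, which holds the telomerase RNA, were lower. The same proteins also serve in ribosomal RNA modification. Ruvbl1, an assembly ATPase, had a log2 fold change of -0.57, but 81.7% of its longest transcript is matched almost exactly by the pseudogene Gm5837. At the other end Tep1 and Tgs1 were higher (0.29 and 0.23), and Parn was at -0.070 (edgeR adjusted p 0.24), at -0.042 without Veh replicate 2 and at 0.020 with library size as the only scaling. Tert and the 4 H/ACA genes therefore had opposite signs.

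Telomere replication and protection was read over 16 genes. Of these, 4 were called higher, 3 lower and 9 neither way, and their median log2 fold change was 0.075. Over all genes 56.4% were called, and the list was not tested against them. Wrn, a helicase that acts at telomeres, rose most, from 26.0 and 29.3 CPM in Veh to 36.7 and 37.6 CPM in NRRA (log2 fold change 0.42, SE 0.067). Tnks, a poly(ADP-ribose) polymerase, was higher by 0.16 (SE 0.029). Ten1, of the complex that fills in the overhang, had a value of 0.16 without a call (edgeR adjusted p 0.201). It rests on single libraries, with 0.039 without Veh replicate 1 and a call at 0.30 without Veh replicate 2 (edgeR adjusted p 0.0368). Pif1, which encodes a helicase, fell from 15.3 and 15.4 CPM to 7.71 and 9.63 CPM (log2 fold change -0.83, SE 0.11). Atrx, a chromatin remodeller found at telomeres, fell by 0.17 on the log2 scale (SE 0.033), and Stn1, a partner of Ten1, had a value of -0.14 (edgeR adjusted p 0.188) that ran from -0.23 to -0.052 when a library was left out. The values in this list depend on scaling. Under library size alone 9 genes were higher and 2 lower, Tnks was at 0.25, Atrx at -0.084, and Ten1 passed the test at 0.25 (edgeR adjusted p 0.044) and Daxx at 0.19 (edgeR adjusted p 0.00136).

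**Figure D5:**
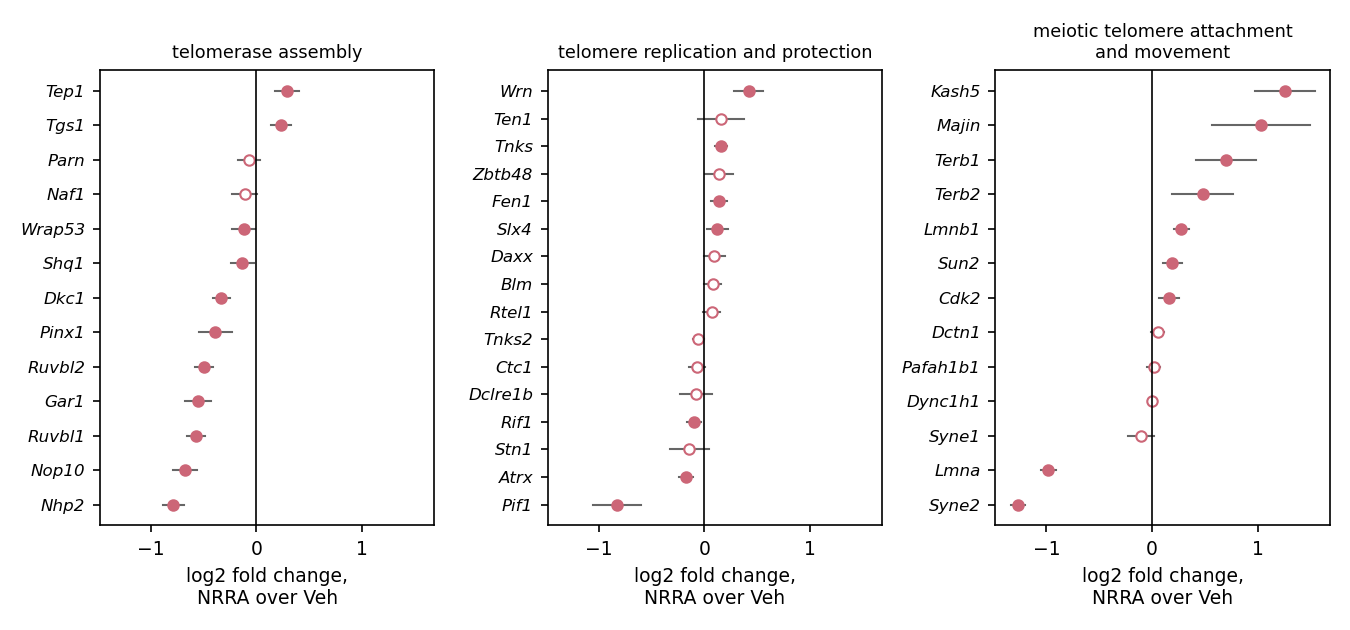
Log2 fold change, NRRA over Veh, of the partner genes in 3 lists, with 95% intervals. Filled points passed the test and open points did not. Genes of the telomerase assembly list lie mostly left of 0, while Kash5, Majin, Terb1 and Terb2 lie to the right.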

How the data were processed

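For the 4 libraries the authors deposited unnormalised gene counts in a single table. By the study's methods, libraries were made by oligo-dT capture with strand selection. The submitters' processing notes name bcl2fastq, STAR 2.6.1c, featureCounts 1.6.4 and mm10, and the annotation release and strand setting are not given in the sources used here. Groups and replicate numbers came from the sample titles, and columns were matched by the descriptions, in which the Veh libraries carry other numbers. The study describes the replicates of its sequencing as biological and independent, while the labels do not say whether the libraries came from separate cultures. The p-values measure the spread between these libraries. With 2 libraries a group, that spread is itself estimated with little precision.

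Counts were fitted in R 4.3.3 with edgeR 4.0.16 (filterByExpr, TMM scaling, robust quasi-likelihood F test, Benjamini-Hochberg adjustment over all genes tested, threshold 0.05). CPM were scaled to TMM library sizes. A count of 3 corresponded to 0.0921 to 0.111 CPM. SE was derived from the F statistic. The test was checked on simulated data. Exonic lengths, coordinates and overlaps came from GENCODE M21 (GRCm38), where 99.5% of identifiers were found. Near-identical stretches were sought with BLAST (95% identity, 100 bases). DESeq2 1.42.0, other scalings and filters, the replicate block and leaving out each library were alternatives. The members and lists were chosen with earlier results of these data known. All members were named, and of each list the 3 highest and 3 lowest log2 fold changes, genes not tested and, for attachment, Terb1, Terb2, Majin and Kash5. The marker Gcna was not found by that symbol.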

Additional observations from a re-analysis of the deposited data

How the results depend on the processing

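Each of the 10 genes was refitted under 12 alternatives, and 119 of 120 values kept their side of the threshold. The exception was Pot1b without NRRA replicate 1. None of the called values changed sign. The count of 7 higher and 1 lower held with other scalings, other filters and DESeq2, and when robust estimation was dropped. It also held with the replicate block, where the log2 fold change of Tert was 0.26 and that of Pot1b 0.35. The libraries with the same number did not deviate together (r of their deviations across genes -0.011), so the block pairs numbers only. With library size alone the median of all genes rose from 0.00029 to 0.09, and Terf1 and Tinf2 moved to -0.15 and 0.27. Terf2 and Pot1a, which were not called, then stood at 0.019 and 0.086. Of 504 values of partner genes, 25 lost and 20 gained the call. The number of higher genes in the telomere replication and protection list was 9 with library size only and 7 with upper quartile scaling. The other counts stayed within 1.5 times. The Pot1a difference was -5.57 percentage points per kilobase of exonic length, and -4.32 per kilobase of the longest transcript, an alternative chosen after seeing the data, as was the order of levels by that length. At this depth Spdya and Majin, with at most 109 counts in a library, carried SEs of 0.23 and 0.22.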

Other observations

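Relatives of the attachment genes were looked up after the values above had been seen. Among other genes of the SUN and KASH families, Syne3 was at 29.6 and 29.0 CPM in Veh and 43.0 and 43.4 CPM in NRRA (log2 fold change 0.56, SE 0.059, edgeR adjusted p 7.86e-09). Syne4 moved the other way, from 40.5 and 33.7 CPM to 27.8 and 25.8 CPM (log2 fold change -0.47, SE 0.075). Spag4, a SUN gene of later germ cells, was at 1.59 and 2.29 CPM in Veh and 2.61 and 2.96 CPM in NRRA and did not pass the test (edgeR adjusted p 0.0586). Sun3 and Sun5, known from spermatids, had at most 7 counts in any library.

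The other Speedy genes in the table, Spdye4a, Spdye4b and Spdye4c, had between 0 and 16 counts in the 4 libraries and were not tested, so Spdya was the most counted of the Speedy genes looked up. The Zscan4 genes, which mark a telomere-extending state of embryonic stem cells, were listed at 0 in nearly every library. Zscan4e had 1 count in NRRA replicate 1, and the other 5 genes of that cluster had 0 in all 4 libraries. Counts of such a multigene family are uncertain where reads fit several copies.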
